A study of Homo sapiens with 4 samples.

Results

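The DNAJ cochaperones and heat shock proteins were described on 4 arrays as 165 of 54675 probe sets, which stand for 67 of the 19775 genes that have a probe set with a single gene symbol. Members were the probe sets whose single symbol belongs to DNAJA, DNAJB or DNAJC, to the HSPA, HSPB, HSPH, HSPD, HSPE or HSP90 families, or to the heat shock factors, of which HSF1 and HSF4 had such a probe set. They comprised 108 probe sets of 41 DNAJ genes and 57 of 26 heat shock protein and factor genes. The rule uses gene symbols alone and no measured value, although the family was taken up with earlier results of these data known. DNAJC25, HSPA1A, HSPA1B and HSPA8 were represented only by probe sets with several symbols and were not analysed here.

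Both human lines studied are cutaneous T cell lymphoma lines, of which MyLa comes from mycosis fungoides. The groups were MyLa control, MyLa with IL-32γ, HH control and HH with IL-32γ, with 1 array each. Every group was grown for 40 hours in 0.1% serum, and the treated groups received IL-32γ, a form of the cytokine interleukin-32, at 5 ng/ml. The series asks what IL-32 does in mycosis fungoides, and for the chaperones this gives a comparison of treated with control cells in each line and a comparison of the lines. Each line is a single established line, so a difference between them is one between MyLa and HH and not between kinds of lymphoma. All groups shared the low serum, and cells in full serum were not analysed here. Nothing in the labels says whether the arrays came from separate cultures, so the p-values below measure only the spread between these samples.

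As background, HSP70 proteins bind and release unfolded stretches of other proteins in a cycle driven by ATP. DNAJ proteins, named for the J domain they share, deliver substrates to HSP70 and trigger its ATP hydrolysis, and HSP110-type proteins and other exchange factors then release the ADP. HSP90, the mitochondrial chaperonin and the small heat shock proteins act beside this cycle, and HSF1 turns on many of these genes when proteins unfold in the cytosol. Stress in the endoplasmic reticulum (ER) instead induces ER members such as HSPA5 and HSP90B1.

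Because much of this regulation is read at promoters, the sequences before the starts of members on which the results turn are shown first, each 250 bases long, 5′ to 3′ on the gene's strand, from RefSeq on GRCh38.p14. HSPA5 (chr9:125241344-125241593, minus strand) and HSP90B1 (chr12:103930160-103930409, plus strand) hold the ER stress element in capitals.
HSPA5: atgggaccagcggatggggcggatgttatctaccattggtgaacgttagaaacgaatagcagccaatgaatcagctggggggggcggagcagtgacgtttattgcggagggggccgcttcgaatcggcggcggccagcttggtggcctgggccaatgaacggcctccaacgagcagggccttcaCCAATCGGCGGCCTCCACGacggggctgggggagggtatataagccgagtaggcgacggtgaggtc
HSP90B1: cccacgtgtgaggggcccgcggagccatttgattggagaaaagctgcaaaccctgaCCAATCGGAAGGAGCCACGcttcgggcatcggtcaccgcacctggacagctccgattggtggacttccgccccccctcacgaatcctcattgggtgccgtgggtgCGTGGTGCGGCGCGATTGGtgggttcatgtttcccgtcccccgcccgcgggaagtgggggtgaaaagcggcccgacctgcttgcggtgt
HSP90AA1 (chr14:102087045-102087294, minus strand) and HSPA6 (chr1:161524290-161524539, plus strand) hold a heat shock element of 3 units in capitals, and HSPB1 (chr7:76302423-76302672, plus strand) holds a core of 2 units in capitals.
HSP90AA1: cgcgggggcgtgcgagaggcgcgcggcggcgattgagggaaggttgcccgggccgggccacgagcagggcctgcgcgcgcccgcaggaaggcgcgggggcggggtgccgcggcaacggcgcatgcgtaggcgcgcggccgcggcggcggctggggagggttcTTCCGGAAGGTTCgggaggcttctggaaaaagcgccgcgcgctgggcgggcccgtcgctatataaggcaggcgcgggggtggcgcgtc
HSPA6: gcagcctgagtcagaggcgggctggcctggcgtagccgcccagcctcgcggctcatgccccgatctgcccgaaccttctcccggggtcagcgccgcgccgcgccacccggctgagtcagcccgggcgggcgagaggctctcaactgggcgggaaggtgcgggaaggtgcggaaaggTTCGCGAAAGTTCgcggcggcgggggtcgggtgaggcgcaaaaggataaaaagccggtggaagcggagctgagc
HSPB1: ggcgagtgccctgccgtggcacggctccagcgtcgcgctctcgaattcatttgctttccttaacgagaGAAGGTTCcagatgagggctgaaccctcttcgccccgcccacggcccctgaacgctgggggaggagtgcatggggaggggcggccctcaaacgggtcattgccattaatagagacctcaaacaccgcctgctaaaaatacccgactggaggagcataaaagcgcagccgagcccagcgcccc
DNAJC12 (chr10:67838189-67838438, minus strand) is shown because its difference between the lines was the largest among the members, and it held none of the motifs searched.
DNAJC12: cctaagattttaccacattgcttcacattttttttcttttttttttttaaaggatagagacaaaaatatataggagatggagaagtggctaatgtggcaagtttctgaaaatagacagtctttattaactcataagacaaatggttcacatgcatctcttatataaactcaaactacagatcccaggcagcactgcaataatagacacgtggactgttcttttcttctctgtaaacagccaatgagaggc

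The promoter table held 80 promoters of 60 member genes, and 7 member genes were not matched. The heat shock element was searched as GAANNTTCNNGAA or TTCNNGAANNTTC, and every match to it also holds the core, GAANNTTC or TTCNNGAA, on which the sequence reads the same from either strand. The element was present in 5 of 80 member promoters (6.25%), those of HSPA6, HSPD1, HSP90AA1, HSP90AB1 and DNAJB6, beside 155 of 35116 promoters in all (0.441%). The core was present in 17 of 80 (21.25%), beside 11.6% of all promoters. The ER stress element, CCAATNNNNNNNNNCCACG on either strand, was found in the promoters of HSPA5, once, and of HSP90B1, at 2 places, which is 2.5% of member promoters beside 0.074% of all. These matches describe the sequence alone, and binding was not measured.

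Across the arrays, 23433 to 23686 probe sets read 5 or more on the log2 scale, the level taken here as the floor of measurement. The array pairs correlated at r = 0.994 in MyLa and 0.997 in HH over all probe sets, and the control arrays of the lines at 0.908. The control probe set for the 5′ end of ACTB read 10.12 and 11.81 in MyLa (control, then IL-32γ) and 12.69 and 13.58 in HH, whereas the one for its 3′ end stayed between 15.07 and 15.27. Of 9 T cell markers with a probe set, 6 were measured on an array. CD3D read 11.87 to 12.50 on the 4 arrays, and CD3G and CD2 were also measured in both lines. CD3E, CD5 and CD4 lay below the floor in MyLa and between 10.72 and 13.04 in HH, and CD7, LCK and CD28 lay below it on all arrays. Summed over the 9 markers, log2 values came to 44.4 and 44.5 in MyLa and 77.2 and 76.8 in HH. Of 5 fibroblast markers, COL1A1 (11.30 and 10.82 in MyLa, 4.78 and 5.66 in HH) and COL3A1 (13.16 on both MyLa arrays, 2.65 and 2.69 in HH) were measured, while COL1A2, DCN and LUM were below the floor on all arrays. The sum over the fibroblast list was 30.9 and 30.4 in MyLa against 13.8 and 14.7 in HH. Of 4 myeloid markers with a probe set, ITGAM was measured, at 9.00 and 8.73 in MyLa and below the floor on both HH arrays (MyLa minus HH at least 3.87, limma adjusted p 0.000439), while CD14, LYZ and CSF1R were below it on all arrays. The myeloid sum was 15.4 and 15.1 in MyLa and 8.53 on both HH arrays. Of 5 keratinocyte markers KRT10 alone was measured, at 11.44 to 11.66 on the 4 arrays. No B cell, endothelial or melanocyte marker was measured. The part of these differences in the results below was not tested. In bulk RNA, fewer cells with a transcript and less of it per cell cannot be told apart.

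A measured value was found on at least 1 array for 121 of the 165 member probe sets (73.3%, beside 48.0% of all 54613 probe sets that are not array controls), and they stand for 51 of the 67 genes. On all 4 arrays 111 probe sets were measured. The 16 genes below the floor throughout were DNAJB5, DNAJB7, DNAJB8, DNAJB13, DNAJC22, DNAJC28, HSPA2, HSPA6, HSPA12A, HSPA12B, HSPB2, HSPB3, HSPB7, HSPB8, HSPB9 and HSF4. HSPA6, a strictly heat-induced HSP70, was thus not detectable in either line, although its promoter holds the heat shock element shown above. Of the small heat shock proteins, HSPB1 was measured in both lines and HSPB6 in treated MyLa alone. HSF1 was the measured heat shock factor.

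Counted by probe set at 2-fold or more, called differences between the lines lay mostly toward higher values in MyLa. Of 119 member probe sets tested, 29 were higher in MyLa (24.4%) and 4 were higher in HH (3.36%), by limma with a Benjamini-Hochberg adjusted p under 0.05 and at least a 2-fold difference. Over all 25273 probe sets tested, 18.2% were higher in MyLa and 16.9% higher in HH. The member calls came from 16 genes higher in MyLa and 4 higher in HH, with no gene called in both directions. The median member difference, MyLa minus HH, was 0.32 on the log2 scale, beside -0.01 for all probe sets, and 75 of the 119 differences were above 0. On all 33 called probe sets the values of the lines did not overlap, which a call on 2 arrays a line nearly requires. The counts were lower with fewer arrays: without the HH control array 11 were higher in MyLa and 2 in HH, and without the treated HH array 9 and 1, beside 6.84% and 8.31%, and 6.32% and 8.02%, of all probe sets. With each array left out in turn, 9 of the 33 probe sets kept their call every time: the 3 of DNAJC12, 2 of DNAJA4 and 1 each of DNAJB4, DNAJB9, DNAJC6 and HSPA4L. The calls of HSPA5, HSPA13, HSPB1, HSPA4, DNAJC1, DNAJC8, DNAJC10, DNAJC14, DNAJC15, DNAJC30 and DNAJB12 given below were lost when either HH array was left out, and the remaining ones when at least 1 of the arrays was. With 1 probe set standing for each gene, 10 of 50 genes were higher in MyLa and 1 in HH, beside 18.7% and 16.8% of all genes. The share of genes higher in MyLa was thus close to that of all genes. With no fold minimum, 40 member probe sets were higher in MyLa and 21 in HH. Of all 25273 probe sets, 12763 were called in either direction without that minimum.

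**Figure D1:**
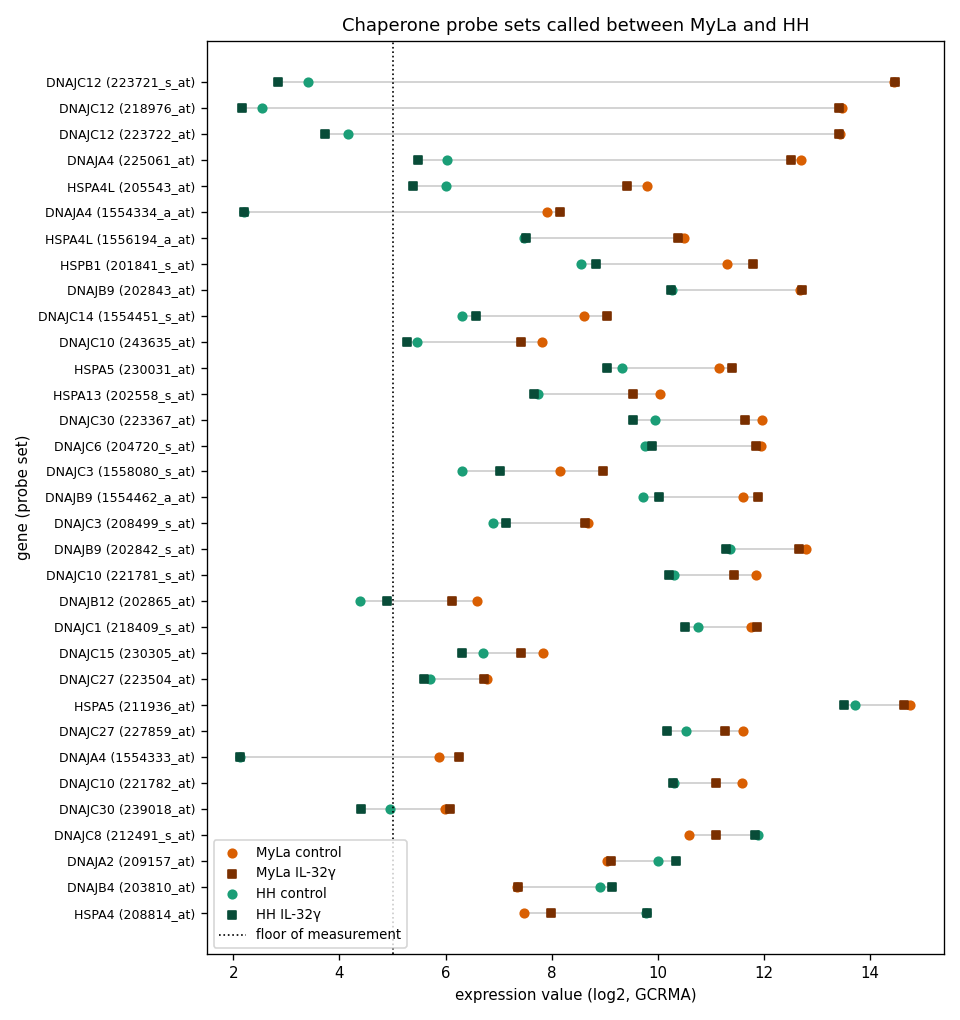
Expression values (log2 after GCRMA, horizontal axis) of the 33 chaperone probe sets called between the lines, 1 row per probe set and 1 point per array, with circles for control and squares for IL-32γ. The dotted line is the floor of 5, and the MyLa points lie to the right of the HH points in 29 rows and to the left in the 4 lowest rows.

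DNAJC12, a J protein that attends the aromatic amino acid hydroxylases, separated the lines furthest. Its probe set 223721_s_at read 14.46 and 14.47 in MyLa (control, then IL-32γ) and 3.41 and 2.85 in HH. Probe set 218976_at read 13.48 and 13.42 in MyLa and 2.53 and 2.16 in HH. The remaining one, 223722_at, read 13.44 and 13.42 in MyLa and 4.16 and 3.72 in HH. All HH values lay below the floor and all MyLa values far above it, so the folds are bounds: at least 707-fold, at least 349.6-fold and at least 345-fold higher in MyLa (limma adjusted p 0.000138 for each). By size, these differences ranked at 6, 39 and 40 among the 25273 probe sets. With IL-32γ the MyLa values differed from the control by 0.01, -0.06 and -0.01 in the same order.

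DNAJA4, a cytosolic J protein of the DNAJA type, followed. Its probe set 225061_at read 12.70 and 12.51 in MyLa and 6.02 and 5.49 in HH, a difference of 6.85 ± 0.23 (log2, SE, 2 arrays a line) or 115-fold (limma adjusted p 0.000361). The other DNAJA4 probe sets were measured in MyLa alone, at 7.91 and 8.16 for 1554334_a_at and at 5.88 and 6.25 for 1554333_at. They were at least 8.21-fold and at least 2.10-fold higher there (limma adjusted p 0.000703 and 0.0136). All 3 probe sets thus separated the lines in the same direction, and the last of them fell under 2-fold or past the p threshold when some single arrays were left out.

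Of DNAJA members in the cytosol, DNAJA2 went the other way. Its probe set 209157_at read 9.05 and 9.12 in MyLa and 10.01 and 10.35 in HH, so it was 2.14-fold higher in HH (limma adjusted p 0.0113). The second DNAJA2 probe set differed by -0.70 ± 0.12, MyLa minus HH, which is under 2-fold (limma adjusted p 0.0151). DNAJA1, a cochaperone induced by heat, differed by 0.03 ± 0.12 and 0.03 ± 0.11.

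In the ER, every call between the lines fell on the side of MyLa, for both HSP70 members and for 5 of the 7 J protein genes on the ER list. HSPA5, also called BiP and the main HSP70 of the ER, read 14.76 and 14.65 in MyLa and 13.73 and 13.52 in HH on probe set 211936_at. It read 11.16 and 11.40 in MyLa and 9.33 and 9.05 in HH on 230031_at. These are 2.12-fold and 4.26-fold higher values in MyLa (limma adjusted p 0.00727 and 0.0027). HSPA13, a microsomal HSP70 relative, read 10.04 and 9.54 in MyLa and 7.75 and 7.67 in HH on 202558_s_at, 4.23-fold higher (limma adjusted p 0.0045). Its other probe set differed by 0.92 ± 0.15, short of 2-fold (limma adjusted p 0.0131).

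Of 21 tested probe sets of J proteins of the ER, 10 were higher in MyLa (47.6%, beside 18.2% of all probe sets) and 0 in HH (beside 16.9%), with a median difference of 0.95. These 10 are repeated probe sets of 5 of the 7 genes. With 1 probe set standing for each gene, DNAJB9 and DNAJC1 alone of the 7 were called, beside 18.7% of all genes higher in MyLa. DNAJB9, which helps HSPA5 deal with misfolded substrates, was called on all 3 of its probe sets. On 202843_at DNAJB9 read 12.68 and 12.73 in MyLa and 10.26 and 10.25 in HH, 5.46-fold higher (limma adjusted p 0.000602). Its other differences were 1.88 ± 0.19 and 1.40 ± 0.12. DNAJC10, a disulfide reductase of the ER, was called on 3 of 5 probe sets. The largest of these, 243635_at, read 7.81 and 7.43 in MyLa and 5.47 and 5.28 in HH, 4.75-fold higher (limma adjusted p 0.00288). The DNAJC10 probe sets without a call differed by 0.20 ± 0.11 and 0.44 ± 0.15.

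DNAJC3, a J protein known for dampening the kinase PERK, read 8.69 and 8.63 in MyLa and 6.90 and 7.15 in HH on 208499_s_at, 3.10-fold higher (limma adjusted p 0.00298). On 1558080_s_at it read 8.15 and 8.97 in MyLa and 6.32 and 7.02 in HH, 3.71-fold higher (limma adjusted p 0.0282). On 225284_at it differed by 0.70 ± 0.10, under 2-fold (limma adjusted p 0.0114). DNAJC1, a J protein of the ER membrane, was called on 1 of 3 probe sets, at 11.75 and 11.87 in MyLa and 10.76 and 10.52 in HH (2.25-fold, limma adjusted p 0.00705). DNAJB12, which sits in the ER membrane and aids degradation, was called on 202865_at, at 6.59 and 6.13 in MyLa and 4.39 and 4.90 in HH, below the floor. That is at least 2.56-fold higher in MyLa (limma adjusted p 0.011), and its other probe sets differed by 0.90 ± 0.21 and 0.85 ± 0.12. DNAJB12 lost this call with the floor at 6, where the difference was 0.36.

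DNAJB11 and DNAJB14 were the listed ER J proteins without a call. DNAJB11, a soluble HSPA5 cochaperone, read 11.90 and 11.95 in MyLa and 12.52 and 12.44 in HH, a difference of -0.55 ± 0.11 that is under 2-fold (limma adjusted p 0.0222). The 3 DNAJB14 probe sets differed by -0.18, -0.37 and -0.49. HSP90B1, the HSP90 of the ER, differed by 0.37 ± 0.15 and 0.35 ± 0.24 (limma adjusted p 0.113 and 0.288). The promoters of HSPA5 and HSP90B1 printed above both hold the ER stress element, and one was called between the lines while the other was not. Whether their differences differ from each other was not tested.

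**Figure D2:**
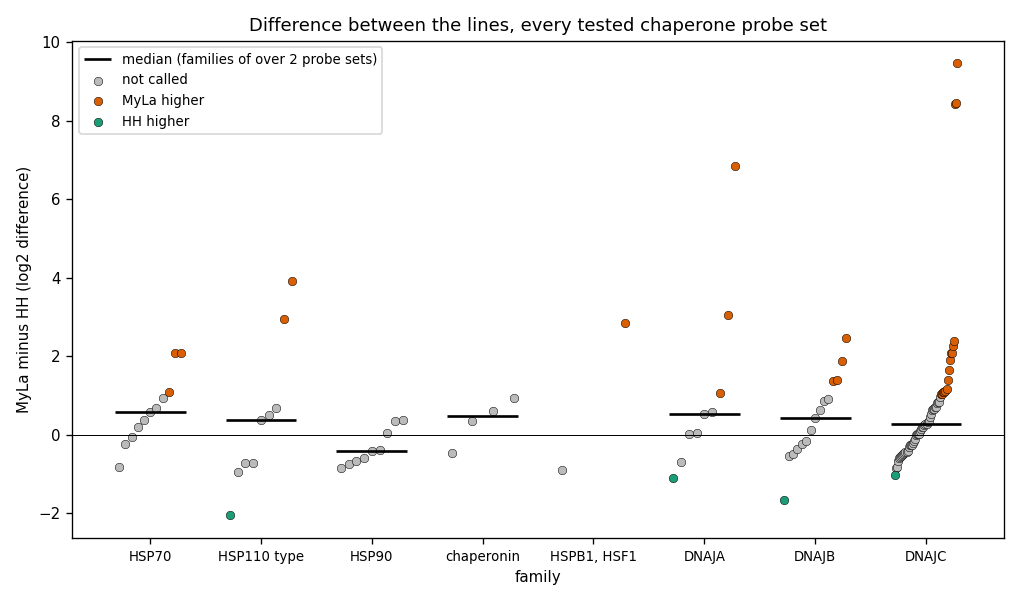
Difference between the lines (MyLa minus HH, log2) of each of the 119 tested chaperone probe sets by family, ordered by size within a family, with bars at the medians of families of more than 2 probe sets. Orange points were called higher in MyLa and green points higher in HH, and all HSP90 and chaperonin points are uncalled.

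In mitochondria, DNAJC30, a mitochondrial J protein, read 11.97 and 11.65 in MyLa and 9.95 and 9.53 in HH on 223367_at, 4.19-fold higher in MyLa (limma adjusted p 0.00504). Its second probe set was measured in MyLa alone, at 5.99 and 6.07, at least 2.05-fold higher (limma adjusted p 0.00476). DNAJC15, a relative of the import motor's J protein, was called on 1 of 3 probe sets, at 7.84 and 7.42 in MyLa and 6.71 and 6.30 in HH (2.18-fold, limma adjusted p 0.0275). The other DNAJC15 probe sets differed by 0.32 ± 0.16 and 0.02 ± 0.14. DNAJA3, DNAJC11 and DNAJC19 had no call, with differences of 0.53 and 0.57 for DNAJA3, -0.54 and -0.26 for DNAJC11 and -0.15 and -0.50 for DNAJC19. HSPA9, the mitochondrial HSP70 that drives import, differed by 0.67, 0.37 and 0.59, all short of 2-fold. Of 11 probe sets of mitochondrial J proteins, 3 were higher in MyLa (27.3%, beside 18.2% of all probe sets) and 0 in HH (beside 16.9%).

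HSPD1 and HSPE1, the partners of the mitochondrial chaperonin, had no call. HSPD1 differed by 0.59 ± 0.18, 0.35 ± 0.12 and 0.94 ± 0.30 (limma adjusted p 0.0599 to 0.0799), and HSPE1 by -0.48 ± 0.13 (limma adjusted p 0.0498, short of 2-fold).

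Among the HSP110-type exchange factors, members differed in direction. HSPA4L read 9.80 and 9.43 in MyLa and 6.01 and 5.38 in HH on 205543_at, 15.1-fold higher in MyLa (limma adjusted p 0.00214). On 1556194_a_at it read 10.50 and 10.39 in MyLa and 7.48 and 7.51 in HH, 7.74-fold higher (limma adjusted p 0.000463). HSPA4, its close relative, was called higher in HH on 208814_at, at 7.47 and 8.0 in MyLa and 9.78 and 9.80 in HH (4.16-fold, limma adjusted p 0.0051). The other HSPA4 probe sets pointed the opposite way, at 0.51 ± 0.12, 0.37 ± 0.12 and 0.69 ± 0.40, so the probe sets of HSPA4 disagree and the gene has no single direction here. HSPH1, the heat-induced member, differed by -0.72 ± 0.13, -0.72 ± 0.19 and -0.95 ± 0.13, each with an adjusted p under 0.05 (limma 0.0177, 0.0448 and 0.00976) but short of 2-fold.

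HSPB1, the small heat shock protein also called HSP27, read 11.31 and 11.79 in MyLa and 8.56 and 8.84 in HH. It was 7.23-fold higher in MyLa (limma adjusted p 0.00257). HSP90AA1, the heat-inducible cytosolic HSP90, lay lower in MyLa on all 4 of its probe sets without reaching 2-fold. Its probe set 211968_s_at read 13.02 and 13.07 in MyLa and 13.84 and 13.98 in HH. Over the 4 probe sets the HSP90AA1 differences ran from -0.86 to -0.59 (limma adjusted p 0.00901 to 0.0185). HSP90AB1, the constitutive HSP90, differed by 0.04 ± 0.13, -0.38 ± 0.18 and -0.43 ± 0.40. HSF1 itself read 8.13 and 8.91 in MyLa and 9.65 and 9.20 in HH, a difference of -0.91 ± 0.35 (limma adjusted p 0.102).

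Of 21 tested probe sets of textbook HSF1 targets, 3 were higher in MyLa, those of HSPB1 and HSPA4L, and 0 were higher in HH, with a median of -0.23. Their share higher in MyLa, 14.3%, is close to the 18.2% of all probe sets, and the share of all higher in HH is 16.9%. The promoters with the heat shock element of 3 units gave no called probe set. HSPA6 was not measured, and HSPD1, HSP90AA1, HSP90AB1 and DNAJB6 (0.12 ± 0.11) had no call on 3, 4, 3 and 1 tested probe sets. Those of HSP90AA1 missed the 2-fold minimum alone, as given above. A link between the element and the line difference was not tested. The cytosolic HSP70 probe sets that were measured, 3 of HSPA14 and 1 of HSPA1L, had no call either. HSPA14, a ribosome-associated HSP70, differed by -0.84 ± 0.20, 0.19 ± 0.25 and -0.07 ± 0.19, and HSPA1L by -0.25 ± 0.27. DNAJB1, the main heat-induced J protein, differed by 0.43 ± 0.34 and -0.23 ± 0.16.

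Calls also fell on J proteins outside the ER and mitochondrial lists. DNAJC6, or auxilin, which uncoats clathrin vesicles, read 11.94 and 11.84 in MyLa and 9.76 and 9.89 in HH, 4.19-fold higher in MyLa (limma adjusted p 0.00121). DNAJC14, a J protein of the ER membrane that aids export of receptors and was not on the ER list, read 8.60 and 9.04 in MyLa and 6.31 and 6.57 in HH on 1554451_s_at, 5.20-fold higher (limma adjusted p 0.0033). DNAJC27, which joins a J domain to a small GTPase, was 2.14-fold and 2.11-fold higher in MyLa on 2 of 4 probe sets. DNAJB4 was higher in HH, at 7.35 and 7.36 in MyLa and 8.92 and 9.14 in HH (3.19-fold, limma adjusted p 0.0025), and its second probe set reached the floor in treated HH alone, at 5.27. DNAJC8, a J protein tied to splicing, read 10.58 and 11.09 in MyLa and 11.89 and 11.84 in HH on 212491_s_at, 2.04-fold higher in HH (limma adjusted p 0.026). Its other probe sets differed by -0.86 and -0.82, short of 2-fold.

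Counting probe sets measured in 1 line, 8 members were measured in MyLa alone and 1 in HH alone, while 112 were measured in both. Among all 26233 measured probe sets, 9.19% were measured in MyLa alone and 7.75% in HH alone. Those in MyLa alone were the 3 of DNAJC12, 2 of DNAJA4 and 1 each of DNAJB12, DNAJC30 and HSPB6.

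With IL-32γ, MyLa showed more chaperone probe sets past 1.5-fold than HH, as it did over all probe sets. These are single arrays with no replicate and no test. In MyLa 18 of 120 measured members (15%), from 15 genes, were higher by at least 1.5-fold and 3 (2.5%) were lower. Over all probe sets measured in MyLa 11.0% were higher and 9.14% lower by this fold. In HH 4 of 113 members were higher (3.54%) and 2 lower (1.77%), beside 5.43% and 4.02% of all probe sets. With 1 probe set standing for each gene, 6 of 51 members were higher and 0 lower in MyLa, beside 7.77% and 7.65% of all genes, and 0 of 49 were higher and 1 lower in HH, beside 1.14% and 4.46%. The median member difference was 0.03 in MyLa and -0.02 in HH, beside -0.05 and -0.03 for all probe sets.

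Among 39 member genes with several probe sets measured in MyLa, DNAJC4 alone had all of them past 1.5-fold. Over all genes, 167 of 5264 did. Probe set 213919_at read 8.03 in the control and 9.23 with IL-32γ, 206782_s_at read 8.11 and 9.27, and 228622_s_at read 10.68 and 11.50. The differences were 1.20, 1.16 and 0.82 in MyLa, and 0.15, 0.23 and -0.08 in HH. The treated MyLa values, at 9.23, 9.27 and 11.50, lay near the HH values of the same probe sets (8.87 and 9.02, 9.01 and 9.24, 11.40 and 11.32).

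HSPB6, a small heat shock protein of muscle, went from 4.54, below the floor, to 6.32 in MyLa and was not measured in HH. DNAJC27 on 233368_s_at went from 4.54 to 6.35 in MyLa and from 3.79 to 5.10 in HH. Both controls were below the floor, so the MyLa differences are at least 1.32 for HSPB6 and at least 1.35 for DNAJC27. The other DNAJC27 probe sets differed by 0.60, -0.05 and -0.35 in MyLa.

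Members of the ER past 1.5-fold in MyLa, besides DNAJC14 given below, were DNAJB14 (7.96 to 8.91 on 222850_s_at), DNAJC1 (8.66 to 9.56 on 222621_at), DNAJC3 (8.15 to 8.97 on 1558080_s_at) and HSP90B1 (11.22 to 11.81 on 216450_x_at). HSPA5 was not among them, with differences of -0.11 and 0.24. The other measured probe sets differed by -0.01 and -0.25 for DNAJB14, 0.12 and 0.46 for DNAJC1 and 0.29 for HSP90B1. Of 21 measured probe sets of listed ER J proteins, 3 were higher (14.3%) and 0 lower, beside 11.0% and 9.14% of all probe sets. HSP90AB1 went from 12.88 to 13.77 on 1557910_at, while its other probe sets differed by -0.20 and 0.31. HSF1, the heat shock factor, read 8.13 and then 8.91 in MyLa, and 9.65 and then 9.20 in HH. DNAJC5, the cysteine string protein of secretory vesicles, differed by 0.83, 0.36 and 0.35 in MyLa. The remaining members above 1.5-fold were DNAJC21 (0.90), a ribosome assembly factor, DNAJC16 (0.75), DNAJC11 (0.69), DNAJC14 (0.60) and HSPA14 (0.59), each on 1 probe set. Their other measured probe sets differed by 0.02 to 0.14 for DNAJC21, 0.29 for DNAJC16, 0.50 for DNAJC11 and 0.43 for DNAJC14. Those of HSPA14 went the opposite way, at -0.45 and -0.35.

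Lower by 1.5-fold in MyLa were DNAJB1 on 200664_s_at (10.11 to 9.27), HSPD1 on 243372_at (8.12 to 7.46) and DNAJC9, a histone chaperone, on 213092_x_at (10.61 to 9.98). Each of these genes had another probe set inside 1.5-fold, at -0.25 for DNAJB1, at -0.16 and 0.15 for HSPD1 and at -0.10 for DNAJC9. Heat-inducible members as a list had 1 of 21 probe sets higher and 2 lower in MyLa (4.76% and 9.52%), beside 11.0% and 9.14% of all probe sets.

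In HH the higher members were HSPA4 on 211016_x_at (7.73 to 8.73), DNAJC24, a factor of diphthamide synthesis, on 1570048_at (5.83 to 6.63), DNAJC3 on 1558080_s_at (6.32 to 7.02) and DNAJC13, an endosomal J protein, on 1560020_at (7.08 to 7.67). The lower ones were HSPA1L (7.66 to 6.99) and HSPA4L on 205543_at (6.01 to 5.38). DNAJC3 was thus the member past 1.5-fold in both lines, on the same probe set, with differences of 0.82 in MyLa and 0.70 in HH. Its other probe sets differed by -0.06 and -0.05 in MyLa and by 0.25 and 0.02 in HH. The HSPA4 and HSPA4L differences in HH each rest on 1 probe set. There the other HSPA4 probe sets differed by 0.02, -0.16 and -0.02, and the other HSPA4L probe set by 0.03. Those of DNAJC24 and DNAJC13 differed by -0.16 and 0.04.

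**Figure D3:**
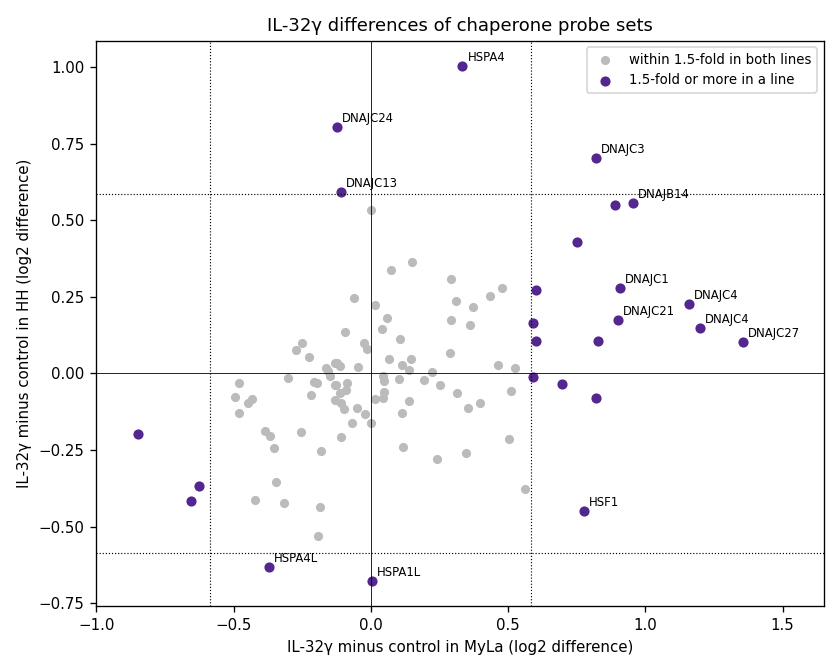
IL-32γ minus control (log2) in MyLa on the horizontal axis and in HH on the vertical axis, 1 point per chaperone probe set measured in both lines, with dotted lines at 1.5-fold. DNAJC3 is the point past 1.5-fold in both lines, and HSF1 lies at 0.78 in MyLa and -0.45 in HH.

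With both lines in 1 fit and the line as a block, which leaves 1 residual degree of freedom, no member was called for IL-32γ by limma at an adjusted p under 0.05, and 0 of all 25273 probe sets were called (0.0%). At an unadjusted p under 0.05, 5 members were higher and 4 lower, beside 4.84% and 5.29% of all probe sets. The higher members were DNAJC3 on 1558080_s_at (0.76, limma unadjusted p 0.00714), HSP90AB1 on 1557910_at (0.72, 0.0152), DNAJB14 on 222850_s_at (0.75, 0.0159), DNAJC16 on 212908_at (0.59, 0.0253) and HSPA4 on 211016_x_at (0.67, 0.05 after rounding). The lower ones were HSPD1 on 243372_at (-0.54, limma unadjusted p 0.0266), HSPA4L on 205543_at (-0.50, 0.0339), DNAJC9 on 213092_x_at (-0.50, 0.0346) and DNAJC15 on 230305_at (-0.42, 0.0375). Each of the 9 had the same sign in both lines, which a small p in this fit largely requires. The smallest adjusted p among members was 0.484. Other measured probe sets of the 9 genes differed less in this fit. They gave 0.09 and -0.01 for DNAJC3, -0.11 and 0.27 for HSP90AB1, 0.03 and -0.08 for DNAJB14, and 0.23 for DNAJC16. For HSPA4 they gave 0.27, -0.08 and 0.09, and for HSPD1 0.26 and -0.07. For HSPA4L the value was -0.04, for DNAJC9 -0.11, and for DNAJC15 0.12 and 0.11, opposite in sign to the listed probe set.

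Many genes have several probe sets, and these were set beside each other. Of 39 member genes with several probe sets measured in MyLa, 21 (53.9%) had the same sign on all of them, beside 46.2% of 5264 genes in all. At least 1 probe set passed 1.5-fold in 16 of these genes, and all of them did in 1, DNAJC4. Of the 5264 genes in all, at least 1 passed it in 2148, and all did with the same sign in 167. In HH 19 of 37 member genes (51.4%) had the same sign throughout, beside 45.1% of 5158 genes. Between the lines 33 of 39 (84.6%) did, beside 76.6% of 5457 genes. The values of the control probe sets moved with IL-32γ as well: in MyLa the 5′ ACTB probe set was 1.69 higher, the middle one 0.72 higher and the 3′ one -0.08 different, and in HH they differed by 0.89, 0.31 and -0.03. The part of this gradient in the member differences was not tested.

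**Figure D4:**
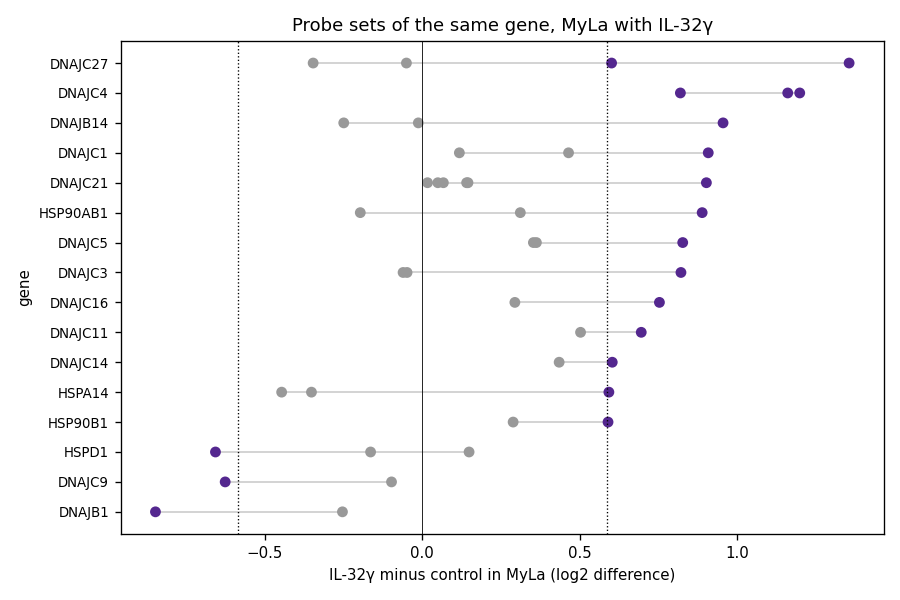
IL-32γ minus control in MyLa (log2, horizontal axis) for every measured probe set of each member gene that has several and at least 1 past 1.5-fold, 1 row per gene, with dotted lines at 1.5-fold and purple points past it. All points are purple for DNAJC4 alone, at 0.82, 1.16 and 1.20.

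The partners of the chaperone cycle, each by the probe set with the highest mean, showed calls of both directions between the lines. Of 13 exchange factors and HSP70 regulators, 3 were higher in MyLa and 1 in HH. Over all genes by 1 probe set each, 18.7% were higher in MyLa and 16.8% in HH, and the counts of the lists below are to be read against these shares. SIL1, the exchange factor of HSPA5, read 8.90 and 9.71 in MyLa and 7.59 and 7.04 in HH, a difference of 1.99 ± 0.38 (limma adjusted p 0.0202). HYOU1, the large HSP70-type exchange factor of the ER, differed by 1.14 ± 0.14 and GRPEL1, that of mitochondria, by 1.45 ± 0.11. BAG2, which inhibits the ubiquitin ligase CHIP, read 6.89 and 7.25 in MyLa and 10.01 and 10.15 in HH, a difference of -3.01 ± 0.17 (limma adjusted p 0.00122).

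Of 14 tested HSP90 cochaperones, UNC45A (1.34), PPID (1.33) and TTC4 (1.19) were higher in MyLa and 0 were higher in HH. Of 18 tested genes of ER chaperones and the unfolded protein response, 2 were higher in MyLa and 0 in HH, with a median of 0.63. They were ERN1, the ER stress sensor IRE1, at 13.24 and 13.23 in MyLa and 10.93 and 10.81 in HH (2.36 ± 0.11, limma adjusted p 0.000783), and DDIT3, the transcription factor CHOP, at 12.59 and 12.71 in MyLa and 10.73 and 10.61 in HH (1.98 ± 0.12, limma adjusted p 0.00138). None of 7 tested subunits of the cytosolic chaperonin TRiC, 5 of prefoldin, 8 mitochondrial chaperones and proteases and 3 J proteins without a DNAJ symbol (0 in each list) was called. HSBP1L1, a relative of the HSF1-binding protein HSBP1, was higher in HH (-1.37 ± 0.18, limma adjusted p 0.00844). With IL-32γ in MyLa, FKBP8 (1.31), SIL1 (0.81) and SDF2L1 (0.65) passed 1.5-fold, in HH they differed by -0.04, -0.55 and -0.49, and 0 genes of these lists passed it there.

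**Figure D5:**
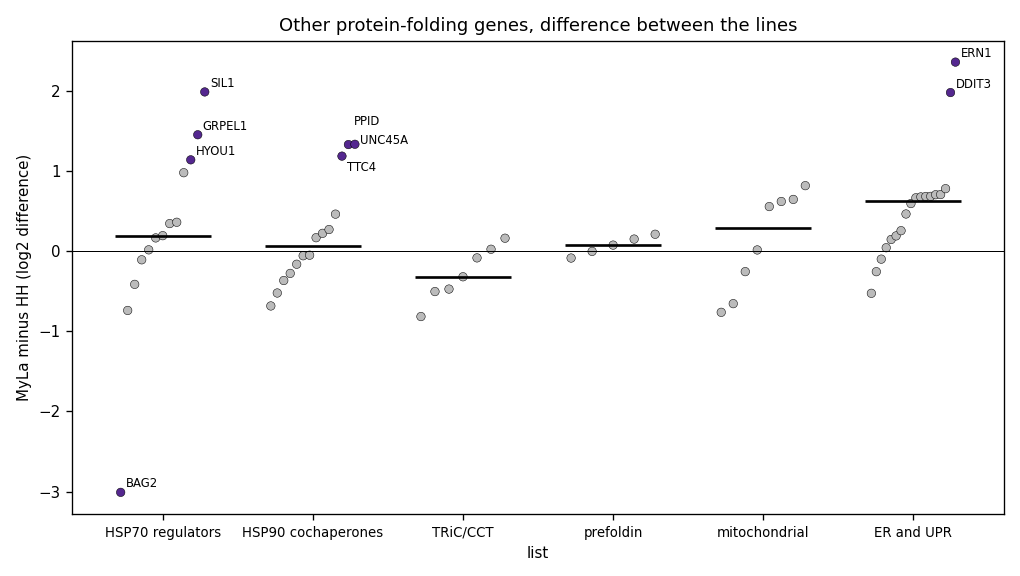
Difference between the lines (MyLa minus HH, log2) of each tested gene of 6 lists of other folding genes, with bars at the list medians. Purple points passed the test at 2-fold or more and are named, with ERN1 highest at 2.36 and BAG2 lowest at -3.01.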

How the data were processed

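Total RNA of each group was hybridised to 1 oligonucleotide array. The values deposited by the authors are log2 expression values per probe set made with GCRMA, a method that models background from probe sequence, per the submitters' processing notes. The sources used here give neither its version nor which arrays were normalised together. Scanner files were not used here. Gene symbols came from the platform annotation, checked through Entrez identifiers against RefSeq (GRCh38.p14); all 165 member probe sets matched and 0 symbols changed.

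Values below 5 were raised to 5. Within a line, probe sets at 5 or more on at least 1 array were counted at 1.5-fold or more, with no test. Fits used limma 3.58.1 in R 4.3.3 on all 25273 probe sets at 5 or more on at least 2 arrays, two-sided, with Benjamini-Hochberg adjustment over all of them. IL-32γ across lines was fitted with the line as a block. MyLa against HH was fitted without a block, so its spread holds the IL-32γ difference too (2 residual degrees of freedom). SE is that of the moderated fit. The number of arrays limits the precision. A fold against values all below 5 is a lower bound. The fits were run on simulated data with independent noise and, for the line fit, no IL-32γ effect. That run cannot check the p-values of the line fit on these arrays.

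The members and gene lists were chosen with earlier results of these data known. Named were all measured heat shock protein and factor genes, ER and mitochondrial J proteins, up to 15 probe sets per direction past a threshold, the 5 smallest p and the 5 largest differences of response per direction, and up to 4 genes of each other list. Tables were handled in Python 3.11.15 with pandas 2.3.3 and drawn with matplotlib 3.10.9.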

Additional observations from a re-analysis of the deposited data

Results flagged for a closer look

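On 7 member probe sets measured on all arrays, the IL-32γ difference had opposite signs in the lines and passed 1.5-fold in one of them. With 1 array per condition this difference was not tested, and the same count over all probe sets was not made. The signs of HSPA1L in MyLa and of HSP90B1 and DNAJC11 in HH rest on very small differences. The MyLa difference minus the HH difference was 1.23 for HSF1 (0.78 in MyLa, -0.45 in HH), 0.90 for DNAJC4 on 228622_s_at (0.82 and -0.08), 0.73 for DNAJC11 on 1555360_a_at (0.69 and -0.03), 0.68 for HSPA1L (0.0041 and -0.68) and 0.60 for HSP90B1 on 216450_x_at (0.59 and -0.01). It was -0.93 for DNAJC24 on 1570048_at (-0.12 in MyLa, 0.80 in HH) and -0.70 for DNAJC13 on 1560020_at (-0.11 and 0.59). The other probe sets of DNAJC24 and DNAJC13 differed by -0.16 and 0.04 in HH. DNAJB2 also had opposite signs, at 0.56 in MyLa and -0.38 in HH, a difference of 0.94, but stayed inside 1.5-fold in both lines. DNAJC17 differed by 0.0 in MyLa and 0.53 in HH, a difference of -0.53, also inside 1.5-fold.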

How the results depend on the processing

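Of the 33 member probe sets called between the lines, 9 kept the call in every refit, namely 3 of DNAJC12, 2 of DNAJA4 and 1 each of DNAJB4, DNAJB9, DNAJC6 and HSPA4L. Against 29 higher in MyLa and 4 in HH, fits with no floor gave 19 and 1, and 1 probe set a gene gave 10 and 1. Leaving out probe sets marked as matching several transcripts gave 19 higher in MyLa and 3 in HH. No fold minimum gave 40 higher in MyLa and 21 in HH. Leaving out each array in turn gave 9 to 22 higher in MyLa and 1 to 4 in HH. Both scalings, an intensity trend and the treatment as a block stayed within 1.5 times. In MyLa, 18 higher and 3 lower with IL-32γ became 10 and 1 without probe sets of several transcripts, 6 and 0 with 1 probe set a gene and 4 and 0 at 2-fold, and 11 were lower at 1.3-fold. In HH, 4 higher and 2 lower became 0 and 1 with 1 probe set a gene, 8 and 8 at 1.3-fold and 1 and 0 at 2-fold. There 2 were higher without probe sets of several transcripts and 1 was lower with a floor of 6. The cause of these shifts was not tested beyond the fewer probe sets or arrays that some alternatives hold. No member was called for IL-32γ across lines in any refit (0 in each, beside 9 at an unadjusted p under 0.05); leaving out an array leaves that fit no test. Arrays were matched by line in the IL-32γ fit, and by treatment in an alternative line fit, which gave 29 and 4.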
